A study of Homo sapiens with 6 samples.

Results

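Telomerase and shelterin, the enzyme that lengthens chromosome ends and the protein complex that covers them, were followed through 10 genes: TERT, DKC1, NOP10, NHP2, GAR1, TERF1, TERF2, TERF2IP, POT1 and TINF2. The rows with these symbols were taken from the raw count table, which lists 39396 gene symbols. All 10 were found, and all 10 passed the filter on low counts that left 17078 genes. The table comes from RNA sequencing of RKO, a human colorectal carcinoma line labelled WT for genotype in both groups. The olaparib group (RKO-Ola) held 3 libraries of cells given olaparib, an inhibitor of the PARP enzymes that respond to DNA strand breaks, and the control group (RKO-DMSO) held 3 libraries of cells given its solvent DMSO. Cells were plated 24 h before treatment. The sources used here give neither the dose nor how long treatment lasted.

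Telomerase is a reverse transcriptase, TERT, that copies a template within its own RNA, TERC, onto the ends of chromosomes. The RNA ends in an H/ACA fold, which is held by dyskerin (DKC1), NOP10, NHP2 and GAR1, the same proteins that sit on H/ACA guide RNAs for pseudouridylation. Shelterin binds the telomeric repeat: TERF1 and TERF2 grip its double strand, TERF2IP (RAP1) rides on TERF2, POT1 covers the single strand, and TINF2 joins the parts. Most somatic cells keep TERT silent, whereas most carcinomas express it, and the other genes are expressed broadly.

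The libraries held 28715138 to 42423785 counts, of which 13378 to 33326 fell on the members. The groups stood far apart as a whole. Of the 17078 genes tested, 75.7% were called by edgeR's quasi-likelihood test at an adjusted p of 0.05, 35.4% higher and 40.3% lower in olaparib, and in 79.4% the groups did not overlap. Marker lists moved with the groups too. Of 7 intestinal markers, CDX2 alone reached 1 CPM (counts in relation to the scaled library size) in either group: it stood at 24.5 ± 2.0 CPM in DMSO (SD, n = 3) and at 0 in every olaparib library. The summed level of that list was 0.174 to 0.885 CPM in olaparib and 23.0 to 27.0 CPM in DMSO, and CDX1 had no count in any library. Of 7 embryonic kidney and neuronal genes carried by the HEK293 line, chosen with earlier results known, the 6 tested were all lower in olaparib. That list summed to 18.3 to 23.2 CPM in olaparib against 249 to 444 CPM in DMSO, and NEFL, PAX2 and SALL1 had no count in olaparib. INA made up most of the olaparib sum (20.1 CPM, against 48.3 CPM in DMSO). General epithelial markers went the other way, with 3 of 4 tested higher in olaparib (807 to 1089 against 219 to 286 CPM). KRT19 had no count in DMSO and only 5 in olaparib. Of 6 fibroblast markers tested 1 was higher and 4 lower (103 to 136 against 93.8 to 101 CPM). COL1A1 made up most of that sum (113 against 68.4 CPM), whereas LUM was lower (0.209 against 18.9 CPM). COL1A2 had no count in olaparib and only 1 in DMSO. Of 3 blood markers tested 2 were lower (2.83 to 3.50 against 4.69 to 5.84 CPM), and CD3E and HBB had no count in any library. Of 4 endothelial markers tested 2 were higher and 1 lower (23.0 to 24.7 against 1.33 to 1.69 CPM), and none was at 0 over a whole group. CDH5 made up most of that sum in olaparib (20.5 against 0.128 CPM in DMSO), whereas KDR was lower (0.0472 against 0.676 CPM). The part of these differences in the results below was not tested. A difference in cell source cannot be told apart from treatment, nor can fewer cells of a type from less RNA per cell. No label states that the replicates are separate cultures; p-values then reflect only how far these libraries spread, which may be technical.

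Of the 10 members, 7 had lower and 1 had higher expression in olaparib, and the other 2 were not called, against 75.7% of all tested genes called. The share of members called was therefore near the background. Their direction was mostly down, against 40.3% of all tested genes lower and 35.4% higher. The members were chosen with earlier results of these data known, so this direction is a description and was not tested. The median log2 fold change was -0.85 over the members and -0.09 over all tested genes. TERT was lower by the largest factor of the 10, then NHP2, TERF2IP, GAR1, TERF1, TERF2 and NOP10. POT1 was higher. DKC1 and TINF2 were not called. The groups did not overlap in the 8 called genes, 7 with olaparib below DMSO and 1 above, against 42.0% and 37.3% of all tested genes, and they overlapped in both others.

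**Figure D1:**
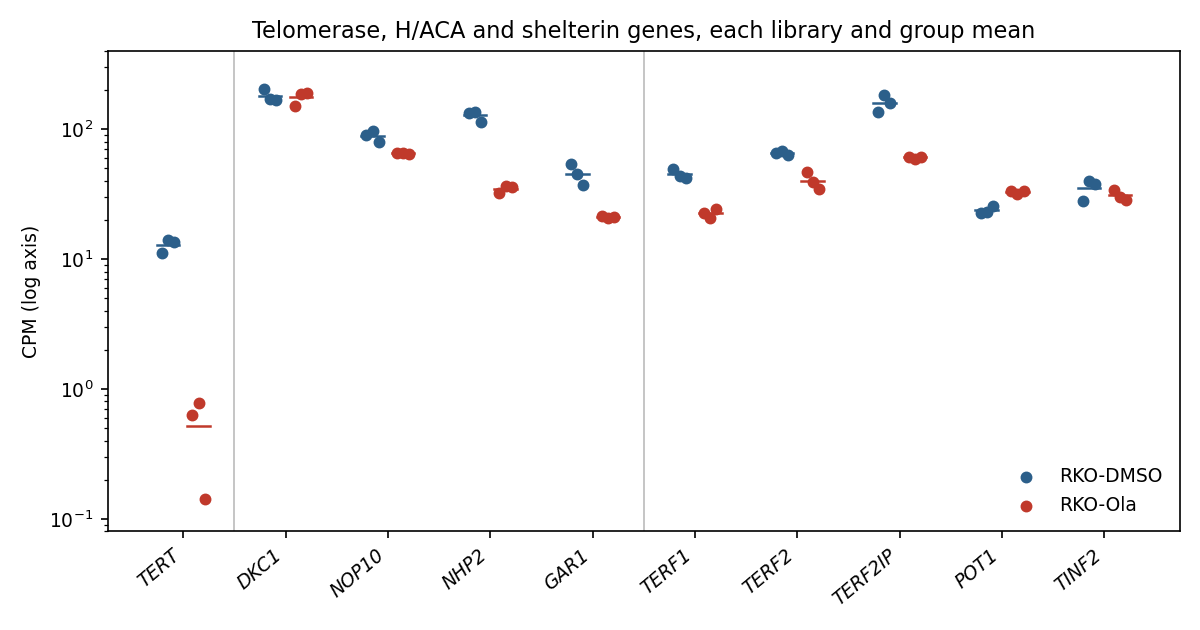
CPM of the 10 members (x axis) on a log axis, with a point for each library and a bar for the mean of each group of 3; vertical lines part TERT, the H/ACA proteins and shelterin. TERT lies at 0.142 to 0.784 CPM in olaparib and 11.1 to 14.0 CPM in DMSO, POT1 is the member with olaparib above DMSO, and the points of DKC1 and TINF2 overlap.

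TERT, the catalytic subunit, lies on the minus strand of chromosome 5 from 1253147 to 1295069 (hg38, GENCODE 29). It held 18, 24 and 4 counts in olaparib replicates 1 to 3 and 466, 414 and 602 counts in DMSO replicates 1 to 3. In CPM these were 0.628, 0.784 and 0.142 in olaparib and 11.1, 14.0 and 13.6 in DMSO. Every olaparib library was thus far below every DMSO library, and olaparib replicate 3 was the lowest. The log2 fold change was -4.61 ± 0.36 (SE, edgeR quasi-likelihood test, Benjamini-Hochberg adjusted p = 2.29e-07), a 24.4-fold difference. With only 46 counts over the olaparib libraries, the ratio of summed counts after scaling by the TMM library sizes, DMSO over olaparib, was 24.3 with a 95% counting interval (exact) of 18.1 to 33.4. A change at least as large was seen in 8.80% of all tested genes, and in 20.6% of the 3032 genes whose mean level lay within 1 log2 unit of that of TERT. TERC, the RNA subunit, held 5, 4 and 0 counts in olaparib and 6, 0 and 0 in DMSO, and did not pass the filter. Its transcript carries no long poly(A) tail, and the sources used here do not give how RNA was selected for these libraries.

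The H/ACA proteins separated into DKC1, which was not called, and its partners, which were lower. DKC1, the pseudouridine synthase itself, lies on chromosome X from 154762742 to 154777689. It stood at 150, 186 and 189 CPM in olaparib replicates 1 to 3 and at 203, 171 and 167 CPM in DMSO replicates 1 to 3. The groups overlapped, and edgeR gave a log2 fold change of -0.04 ± 0.12 (SE, adjusted p = 0.758). The sign was positive without olaparib replicate 1 (0.055) and without DMSO replicate 1 (0.041). Of 2358 genes of similar level, 97.0% differed by more.

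NHP2 binds the upper stem of H/ACA RNAs and lies on chromosome 5 from 178149460 to 178153967. Its levels were 32.0, 36.3 and 36.0 CPM in olaparib and 134, 135 and 112 CPM in DMSO. All olaparib libraries were below all DMSO libraries by a wide gap. The fold change was 3.65 (log2 -1.87 ± 0.11, SE, edgeR adjusted p = 2.18e-08), and 6.85% of 5050 genes of similar level differed by as much. NHP2 overlaps RMND5B on the other strand, and without stranded counts their reads cannot be parted there; RMND5B itself gave -0.19 (edgeR adjusted p = 0.0884), and was called with library size alone or without DMSO replicate 1. The processed copy NHP2P1 held 78 counts in olaparib and 24 in DMSO, few beside the 3047 and 14613 counts of NHP2.

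GAR1, which joins the mature particle in place of the assembly factor NAF1, lies on chromosome 4 from 109815510 to 109824740. It stood at 21.3, 20.5 and 21.1 CPM in olaparib and at 53.3, 45.3 and 37.1 CPM in DMSO. The olaparib libraries lay close together and the DMSO libraries spread widely, with no overlap. The difference was 2.16-fold (log2 -1.11 ± 0.14, SE, edgeR adjusted p = 1.12e-05). NOP10, a small protein packed against dyskerin, lies on chromosome 15 from 34341713 to 34343177. Its levels of 65.3, 65.7 and 64.5 CPM in olaparib were below 89.3, 96.5 and 78.9 CPM in DMSO. This was the smallest called fall, 1.35-fold (log2 -0.44 ± 0.10, SE, edgeR adjusted p = 0.00188).

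Shelterin genes moved in both directions. TERF2IP, on chromosome 16 from 75647786 to 75761872, had the largest fall. It stood at 61.1, 59.2 and 60.9 CPM in olaparib and at 136, 182 and 159 CPM in DMSO. The lowest DMSO library exceeded the highest olaparib library, and the fold change was 2.63 (log2 -1.40 ± 0.12, SE, edgeR adjusted p = 3.50e-07). A change of this size was seen in 14.6% of 4243 genes of similar level. Its gene model overlaps KARS1, the lysyl-tRNA synthetase gene, on the other strand, where edgeR gave -0.04 (adjusted p = 0.752), a value that turned positive without olaparib replicate 3 or DMSO replicate 1.

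TERF1, on chromosome 8 from 73008864 to 73048122, stood at 22.5, 20.7 and 24.4 CPM in olaparib and at 48.8, 43.6 and 42.2 CPM in DMSO. The libraries of each group lay close together and the groups far apart, 1.99-fold (log2 -0.99 ± 0.11, SE, edgeR adjusted p = 6.47e-06). Its 5 processed copies held 0 to 10 counts per group each. How reads shared with copies were counted is not given, so these counts cannot show what the copies do to the TERF1 row. TERF2, on chromosome 16 from 69355561 to 69408571, stood at 46.5, 39.2 and 34.7 CPM in olaparib and at 65.0, 67.7 and 63.5 CPM in DMSO. It was lower in every olaparib library, 1.63-fold (log2 -0.70 ± 0.12, SE, edgeR adjusted p = 0.000147), and 46.2% of 5294 genes of similar level differed by as much. The gene model of TERF2 overlaps AC026464.3, a protein-coding gene on the same strand that has no counts of its own here.

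POT1, which binds single-stranded telomeric DNA, was the member that rose. It lies on the minus strand of chromosome 7 from 124822386 to 124929983. Its levels were 33.4, 31.8 and 33.5 CPM in olaparib and 22.5, 23.1 and 25.7 CPM in DMSO. Each olaparib library exceeded each DMSO library, by 1.38-fold between the groups (log2 0.47 ± 0.11, SE, edgeR adjusted p = 0.00193). POT1-AS1, whose start overlaps that of POT1 on the other strand, was higher as well (254 against 96 counts, log2 1.83, edgeR adjusted p = 0.000132). TINF2, the bridge of the complex, lies on chromosome 14 from 24239643 to 24242674 and stood at 34.1, 30.2 and 28.2 CPM in olaparib and at 28.1, 39.9 and 37.7 CPM in DMSO. DMSO replicate 1 lay below all olaparib libraries, so the groups overlapped (log2 -0.19 ± 0.14, SE, edgeR adjusted p = 0.237). Without that library TINF2 was called lower (-0.34, edgeR adjusted p = 0.0196). ACD (TPP1), the partner of POT1 that brings telomerase to the end, had 39.8 ± 2.37 CPM in olaparib and 47.0 ± 10.98 CPM in DMSO (SD, n = 3), with a log2 fold change of -0.24 ± 0.15 (SE, edgeR adjusted p = 0.162). Its value rested on single libraries, passing without DMSO replicate 1 (-0.35, edgeR adjusted p = 0.0454) and shrinking to -0.04 without DMSO replicate 2 (edgeR adjusted p = 0.702).

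Levels were compared between genes as CPM per kilobase of annotated exon. In DMSO the order from high to low was NOP10 (159 ± 16.0), NHP2 (84.2 ± 8.49), TERF2IP (47.1 ± 6.80), DKC1 (42.9 ± 4.79), GAR1 (22.1 ± 3.97), TINF2 (12.99 ± 2.33), TERF2 (11.6 ± 0.380), TERF1 (5.08 ± 0.395), POT1 (4.03 ± 0.287) and TERT (2.80 ± 0.343), as CPM per kilobase (SD, n = 3). Neighbours in that order overlapped between libraries for TERF2IP with DKC1 and for TINF2 with TERF2. In olaparib the order was NOP10 (118 ± 1.04), DKC1 (41.6 ± 5.19), NHP2 (23.0 ± 1.60), TERF2IP (17.9 ± 0.302), TINF2 (11.4 ± 1.10), GAR1 (10.3 ± 0.198), TERF2 (7.14 ± 1.05), POT1 (5.58 ± 0.162), TERF1 (2.55 ± 0.206) and TERT (0.113 ± 0.0729). No neighbours overlapped there, though TINF2 and GAR1 nearly touched. TERT was the lowest member in both groups, and POT1 passed TERF1. With the length of the longest coding transcript, a choice made after seeing the data, 8 of 10 genes kept their rank in each group: GAR1 passed TINF2 in olaparib and TERF2 passed TINF2 in DMSO.

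Partners of one particle were also set against each other as ratios of counts per kilobase within a library, which no scaling of libraries can move. NHP2 per DKC1 was 0.594, 0.544 and 0.529 in olaparib and 1.83, 2.21 and 1.88 in DMSO. The ratio thus lay below 1 in every olaparib library and above 1 in every DMSO library, a log2 difference of -1.82. Without division by gene length the ratio was below 1 in both groups (0.1997 ± 0.0121 and 0.708 ± 0.0741; SD, n = 3), so its place around 1 rests on the lengths, whereas the difference does not. GAR1 per DKC1 was 0.249 ± 0.0367 in olaparib and 0.513 ± 0.0493 in DMSO, and NOP10 per DKC1 was 2.86 ± 0.390 and 3.74 ± 0.496 (SD, n = 3). In shelterin, TERF2IP per TERF2 was 2.19, 2.51 and 2.91 in olaparib and 3.48, 4.47 and 4.17 in DMSO. TERF1 per TINF2 was lower in olaparib, at 0.227 ± 0.0337 against 0.404 ± 0.112, whereas POT1 per TINF2 was higher, at 0.494 ± 0.0485 against 0.316 ± 0.0516 (SD, n = 3). TERF1 per TERF2 overlapped between the groups, at 0.364 ± 0.0729 against 0.437 ± 0.0360. The exact two-sided permutation test over libraries gave p = 0.1 for each of the 6 ratios without overlap, the smallest value that 3 against 3 allows, and p = 0.3 for TERF1 per TERF2; adjusted over the 7 ratios, the permutation p was 0.117 and 0.3. This design cannot pass 0.05.

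**Figure D2:**
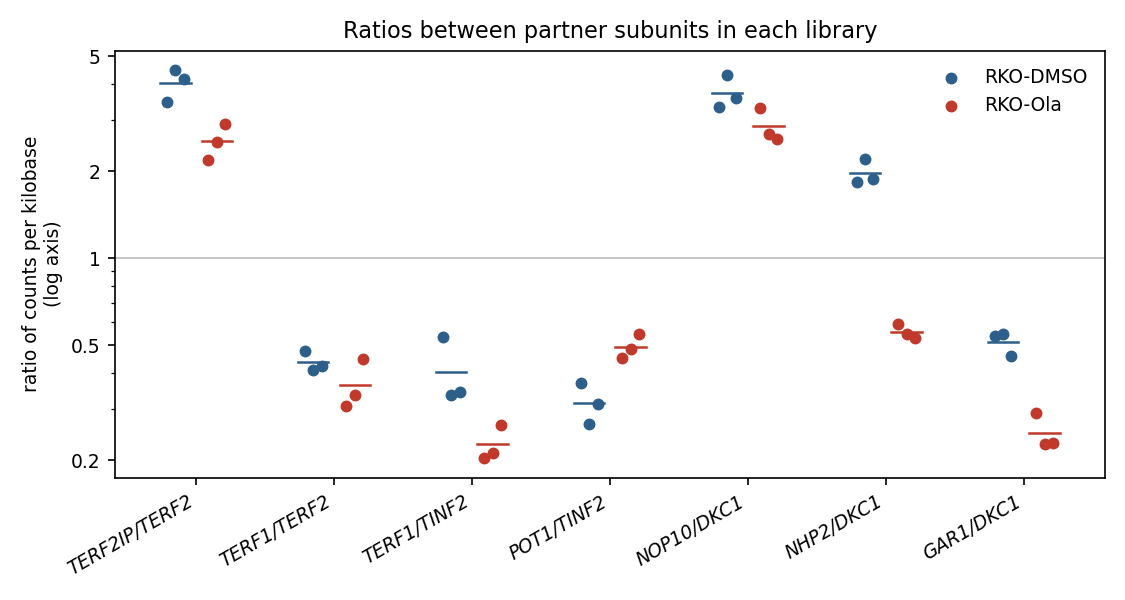
Ratio of counts per kilobase between partner subunits (x axis) on a log axis, with a point for each library, a bar for each group mean and a grey line at 1. NHP2 per DKC1 crosses 1 between the groups on this per-kilobase scale, and TERF1 per TERF2 is the ratio whose groups overlap.

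Each member was set beside the tested protein-coding genes within 5 Mb of it. Around TERT, 18 of 22 genes were higher in olaparib, 2 were lower and 2 were not called; their median log2 fold change was 1.24. TERT therefore went against most of its neighbours. Of all tested genes, 35.4% were higher and 40.3% lower. The nearest tested gene before it, SLC12A7, a potassium-chloride cotransporter gene, was 6.71-fold higher (233 ± 22.1 against 34.7 ± 2.67 CPM). The nearest after it, CLPTM1L, was 1.57-fold higher (450 ± 30.3 against 287 ± 19.7 CPM; SD, n = 3). The neighbours that fell, named after their values were seen, were NKD2, an inhibitor of Wnt signalling, at 0.576 ± 0.408 against 14.4 ± 2.15 CPM (SD, n = 3), and IRX4, without a count in olaparib and at 0.671 CPM in DMSO.

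Neighbours of the other members were mixed in part, but mostly lower around TERF1, GAR1 and TINF2. Around GAR1, 21 of 36 were lower and 5 higher, and around TINF2, 46 of 80 were lower and 14 higher. These counts stand against 40.3% lower and 35.4% higher over all tested genes. Around NOP10, 17 of 36 were higher and 9 lower, whereas within 1 Mb of it 9 of 13 were higher and 0 lower. NHP2, at the far end of the chromosome that holds TERT, was below 66 of its 76 neighbours, whose median was -0.28. TERF2IP was below 36 of 43 (median -0.0008), GAR1 below 25 of 36 (median -0.54), TERF2 below 82 of 109 (median -0.16) and NOP10 below 25 of 36 (median 0.40). Around TERF1, 17 of 25 genes were lower in olaparib and the median of -1.42 was below the value of TERF1 itself (-0.99), but within 1 Mb and 10 Mb the medians of -0.27 and -0.63 were above it. POT1 was above 30 of its 40 neighbours (median -0.28) and TINF2 above 51 of 80 (median -0.65). DKC1 lay near the median of its 76 neighbours (-0.11). Members were not tested against their regions.

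**Figure D3:**
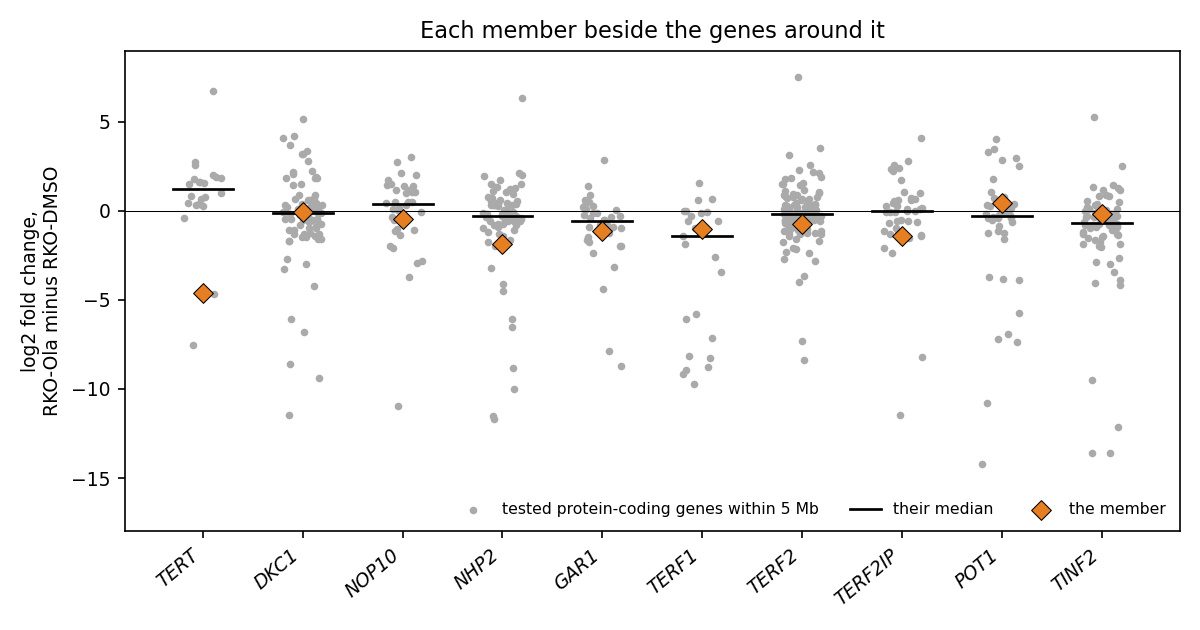
Log2 fold change, RKO-Ola minus RKO-DMSO (y axis), of each member (diamond), of the tested protein-coding genes within 5 Mb of it (grey points, spread sideways at random) and their median (bar). TERT lies at -4.61 below a median of 1.24, whereas DKC1 lies at -0.04 beside a median of -0.11.

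Genes of telomerase assembly and RNA maturation, which do not all act in the same direction on the enzyme, were mostly lower in olaparib. Of 12 tested, 8 were lower and 2 higher, 2 were not called, and the median was -0.66. Over all tested genes 75.7% were called, 40.3% lower and 35.4% higher, with a median of -0.09. RUVBL2 and RUVBL1, paired ATPases that assemble the H/ACA particle, fell from 258 ± 25.9 to 88.2 ± 4.41 CPM and from 169 ± 16.8 to 76.9 ± 2.61 CPM (SD, n = 3). NAF1, the assembly factor that GAR1 replaces, was 3.05-fold lower (15.1 ± 1.204 against 46.0 ± 1.87 CPM). ZCCHC8, a part of the nuclear complex that trims TERC, was 2.15-fold higher (89.6 ± 2.34 against 41.6 ± 4.99 CPM). The box C/D proteins, which hold the other main class of guide RNAs, were lower in 3 of 4 cases, against 40.3% of all tested genes lower. NOP56 was 4.31-fold lower, fibrillarin (FBL) 3.70-fold and SNU13 1.73-fold, while NOP58 gave a log2 fold change of -0.11 ± 0.12 (SE, edgeR adjusted p = 0.43). Of 176 rows whose symbols begin with SNORA or SCARNA, mostly H/ACA guide RNAs with some box C/D RNAs of Cajal bodies among the SCARNA rows, 14 passed the filter, with 1 higher, 1 lower and 12 not passing. Most guide RNAs of this kind lie in introns of host genes and lack a poly(A) tail, so a count in such a row may come from the host's unspliced RNA.

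**Figure D4:**
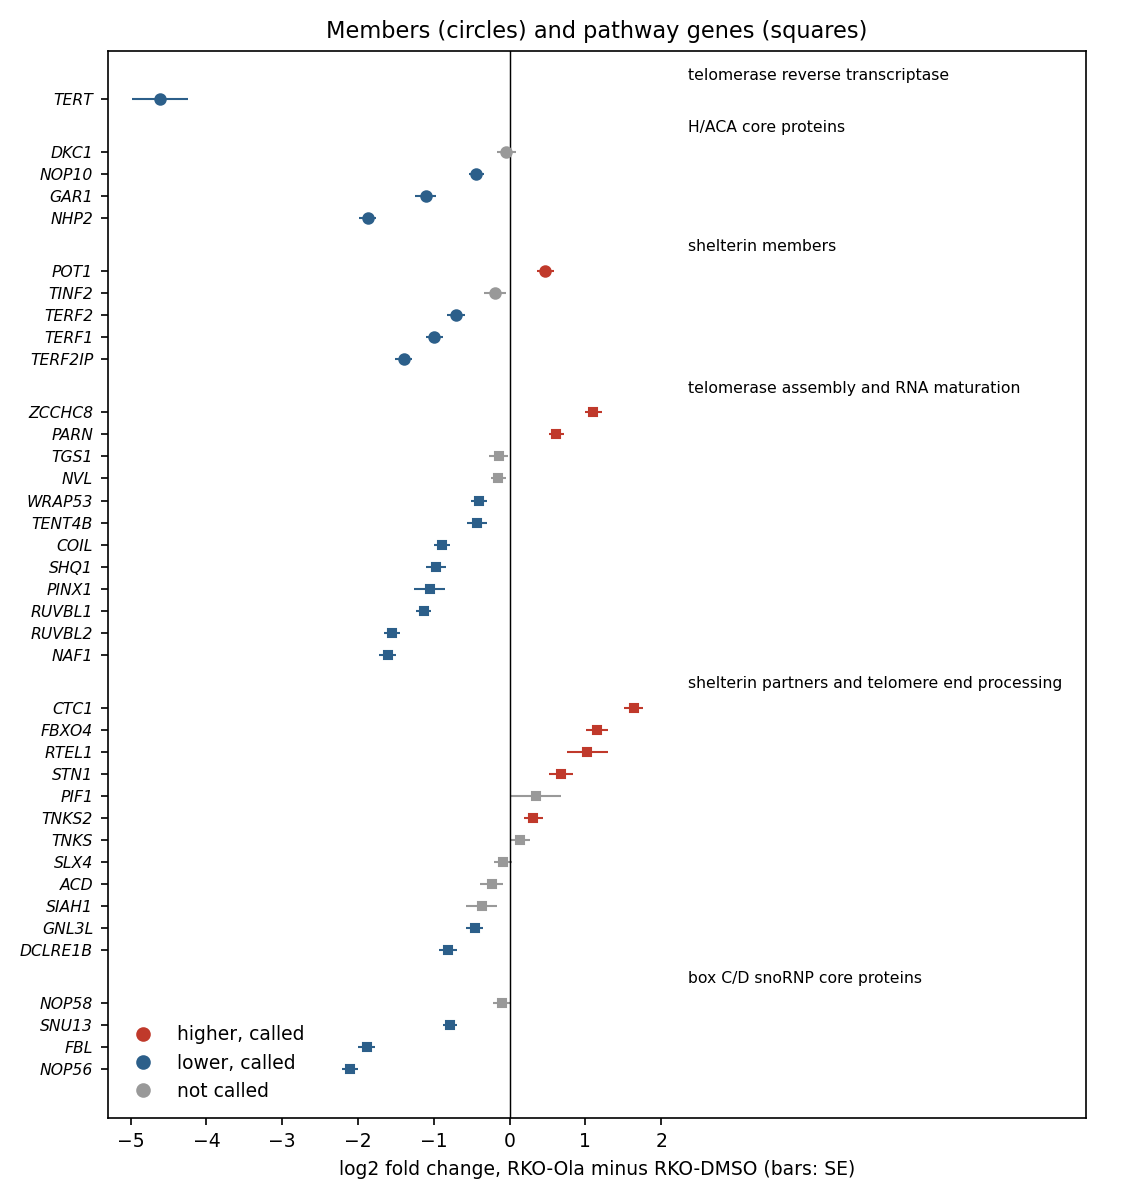
Log2 fold change, RKO-Ola minus RKO-DMSO (x axis, bars are the SE), of the members (circles) and of tested pathway genes (squares), grouped by role and coloured by call at an adjusted p of 0.05. TERT stands at -4.61, NHP2 and GAR1 below DKC1 among the H/ACA proteins, and POT1 is the shelterin member above 0.

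Partners of shelterin and genes of telomere end processing had 5 of 12 tested genes higher and 2 lower, 5 were not called, and the median was 0.23. The 7 called of 12 were no larger a share than the 75.7% over all tested genes. CTC1 and STN1, parts of the CST complex that fills in the strand opposite the telomeric overhang, rose 3.11-fold (84.2 ± 5.54 against 27.0 ± 4.37 CPM) and 1.60-fold (22.9 ± 4.08 against 14.3 ± 1.94 CPM; SD, n = 3). Their partner TEN1 held 14 counts in each group and was not tested. FBXO4, which marks TERF1 for breakdown, was 2.22-fold higher, and DCLRE1B (Apollo), the nuclease that TERF2 brings to telomeres, was 1.76-fold lower. The tankyrases TNKS and TNKS2, PARP enzymes that modify TERF1 and are named here outside the naming rule, gave 0.14 ± 0.13 (SE, edgeR adjusted p = 0.321) and 0.31 ± 0.12 (SE, edgeR adjusted p = 0.0371). The TNKS2 call was lost with library size alone (edgeR adjusted p = 0.115) and on leaving out any 1 of the olaparib libraries, DMSO replicate 1 or DMSO replicate 2 (edgeR adjusted p = 0.0688 to 0.121), and TNKS was called without DMSO replicate 3 (0.29, edgeR adjusted p = 0.0306).

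Of 12 genes of telomeric chromatin and recombination-based lengthening, 3 were higher and 6 lower, 3 were not called, and the median was -0.26, a share called near the 75.7% over all tested genes. ZNF827, which draws chromatin remodellers to telomeres, held 2 counts in olaparib, both in replicate 3, and 1580 in DMSO. Scaled by the TMM library sizes, its count ratio, DMSO over olaparib, was 596 with a 95% counting interval of 165 to 4927. ZBTB48 (TZAP), which binds telomeric repeats, was 3.16-fold lower, and the genes of histone H3.3, H3-3A and H3-3B, were 2.17-fold and 2.14-fold lower. ATRX and DAXX, which together deposit H3.3 at telomeres, are also named outside the rule. ATRX was 2.43-fold higher (178 ± 11.1 against 73.1 ± 14.4 CPM, SD, n = 3). DAXX was not called (log2 -0.17 ± 0.10, SE, edgeR adjusted p = 0.139).

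Of 16 factors known to bind the TERT promoter, 7 were higher and 4 lower, 5 were not called, and the median was 0.27; this share called was also near the 75.7% over all tested genes. MNT, a repressor that competes with MYC for MAX, was 3.12-fold higher (94.1 ± 4.40 against 30.2 ± 0.906 CPM). ETS1 was 4.96-fold higher and SP1 2.56-fold higher. WT1, the Wilms tumour factor, stood at 7.79 ± 1.52 CPM in DMSO (SD, n = 3) and at 0 in olaparib, at least 229-fold lower with 3 counts over the group as the floor. MYC, the best known activator of TERT and named outside the rule, stood at 161 ± 26.3 and 129 ± 24.9 CPM (SD, n = 3; log2 0.32 ± 0.15, SE, edgeR adjusted p = 0.0799). It passed without olaparib replicate 1 (0.44, edgeR adjusted p = 0.0229), without DMSO replicate 2 (0.43, edgeR adjusted p = 0.0267), with the replicate block (edgeR adjusted p = 0.0242) and with no filter beyond 1 count (edgeR adjusted p = 0.0435).

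Promoter sequence was read from RefSeq (GRCh38.p14) for 8 of the 10 members, as 250 bases before and 50 after the start; TERF1 and TERF2 had no entry. These windows were searched on both strands for the GC box of SP1 (GGGCGG), the E-box of MYC and MAX (CACGTG) and an ETS core (CCGGAAG), and no match of one motif overlapped a match of another in the members. The 8 members had 10 such windows, since GAR1 and TINF2 have 2 starts each. A GC box was found in 9 of these 10 windows (all but 1 of GAR1) against 44.95% of all 35116 promoters in the table. An E-box was found in 3 of 10 windows (TERT, NOP10 and GAR1) against 7.26%, and an ETS core in 5 of 10 (NOP10, GAR1, TERF2IP and both of TINF2) against 10.3%. The 2 windows of TINF2 overlap, as do those of GAR1, so windows are not independent. By gene, 8 of 8 members held a GC box, 3 an E-box and 4 an ETS core, and no share by gene was computed for all promoters. The background was not matched to the members in expression or GC content. These shares therefore cannot set the members apart from other expressed genes. GC content ran from 52.7 to 77.3% (TERT the highest), against a median of 58.7% over all promoters. The stretches below show the members beside TERT that fell most (NHP2 and TERF2IP), the member that rose (POT1), and NOP10 for its E-box, cut to upstream bases outside annotated exons, 5′ to 3′ on the gene's strand, with motif matches in capitals.
NHP2, chr5:178153968-178154135, minus strand: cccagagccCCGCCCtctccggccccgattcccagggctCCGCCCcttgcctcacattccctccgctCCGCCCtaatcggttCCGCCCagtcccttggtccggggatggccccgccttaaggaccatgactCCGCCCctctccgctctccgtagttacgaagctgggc
TERF2IP, chr16:75647680-75647772, plus strand: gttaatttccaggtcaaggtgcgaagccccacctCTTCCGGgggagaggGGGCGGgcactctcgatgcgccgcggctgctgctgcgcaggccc
NOP10, chr15:34343178-34343314, minus strand: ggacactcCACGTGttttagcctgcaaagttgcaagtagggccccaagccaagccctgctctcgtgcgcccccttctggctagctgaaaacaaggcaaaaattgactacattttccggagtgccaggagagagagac
POT1, chr7:124930017-124930075, minus strand: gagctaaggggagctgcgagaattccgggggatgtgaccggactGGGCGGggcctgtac
The stretch of NHP2 held 5 GC boxes, all read as their reverse complement. The printed stretch of TERF2IP held 1 GC box and 1 ETS core, that of NOP10 1 E-box and that of POT1 1 GC box. The whole windows held more, with 2 E-boxes, 1 GC box and 1 ETS core for NOP10 and 2 GC boxes for POT1. GC boxes occurred both in members that fell and in the member that rose. A match is a run of letters and not evidence of binding.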

How the data were processed

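RNA sequencing gave 6 libraries, 3 a group, with groups and replicate numbers from the sample titles. Values are raw counts per gene symbol, deposited by the authors as 1 table. Per the submitters' processing notes, fastp, STAR and the build hg38 were used; how reads were counted, with or without strand, and on which annotation is not given in the sources used here. In each library 2 counts were more frequent among genes than 1 count, a sign that mates may have been counted apart, so counting intervals are too narrow; they leave out all other error. Libraries within a group differed beyond sampling noise (chi-square per degree of freedom 4.74 to 68.6), so no library was counted as a copy of another; this does not show that they are separate cultures.

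All counts were fitted together with edgeR 4.0.16 (R 4.3.3): default filter, TMM scaling, robust quasi-likelihood test, group as the only term, Benjamini-Hochberg adjustment, calls at 0.05. The fit was tested on data simulated with few genes changed and the same dispersion for all genes. In these data most tested genes were called, so that test cannot show how the fit behaves here. CPM use TMM-scaled totals, and SEs come from the F statistic. Genes of similar level had a mean log2(CPM + 0.5) within 1 of the member. Positions and exon lengths are from GENCODE 29 (99.8% of rows matched by symbol or gene ID). The members were named in all cases, and up to 4 genes per list with the smallest adjusted p, plus ACD, TERC and the nearest tested genes beside TERT. The members and lists were chosen with earlier results of these data known. Alternatives were DESeq2 1.42.0, limma-voom (limma 3.58.1), 2 other scalings, 2 other filters, counts divided by 2, a replicate block, the loss of each library and, for neighbours, windows of 1 and 10 Mb.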

Additional observations from a re-analysis of the deposited data

How the results depend on the processing

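Over 14 alternative fits, 8 of 10 members kept their direction and call: TERT stayed between -5.04 and -4.16, NHP2 between -1.97 and -1.81, and POT1 between 0.40 and 0.52 (log2). DKC1, not called in any fit, turned positive without olaparib replicate 1 (0.055) and without DMSO replicate 1 (0.041), and ranged from -0.11 to 0.055 over the loss of each library. TINF2 was called without DMSO replicate 1 (-0.34) and not otherwise, with a range of -0.34 to -0.11; the cause was not tested. The counts of members called, of genes called in each list and of all genes called stayed within 1.5 times, and 90.1 to 99.6% of all calls were shared, 0 with opposite sign. Of 32 other pathway, overlapping and neighbouring genes named, 26 kept direction and call wherever they were tested. ACD, RMND5B, TNKS, TNKS2 and MYC did not keep their call, and KARS1, never called, turned to 0.0041 without olaparib replicate 3 and 0.021 without DMSO replicate 1. TNKS2 lost its call in 6 of 14 alternatives. Marker genes and DAXX were not run. The ratios between subunits change between groups by the same factor with or without gene length. No label says that replicate numbers pair the libraries. Deviations of same-numbered libraries from their group means correlated at -0.139, -0.091 and -0.00164. Deviations within a group of 3 constrain each other, so these values cannot exclude pairing. The fit with the replicate block called 12426 genes against 12927 and moved no member's call, but MYC passed with it (0.32). Medians around members depended on the window. With 1 Mb they were 0.82 for TERT, 1.201 for NOP10, -0.79 for GAR1, -0.27 for TERF1, -0.28 for TERF2, 0.13 for TERF2IP, -3.06 for POT1 (2 genes) and -0.37 for TINF2. With 10 Mb they were 1.07 for TERT, -0.13 for NHP2, -0.26 for GAR1, -0.63 for TERF1 and -0.073 for TERF2. Depth limits TERT most, with 4 to 24 counts per olaparib library, and TERC, with 0 to 6 counts, cannot be compared at this depth.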
